A study of Mus musculus with 4 samples.

Results

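The miRNAs described here are the 6 mature arms mmu-miR-192-5p, mmu-miR-192-3p, mmu-miR-194-5p, mmu-miR-194-1-3p, mmu-miR-194-2-3p and mmu-miR-215-5p, out of 1907 mature miRNAs in the count files, and are written without the mouse prefix from here on. They were taken by name, as the guide and passenger arms of a pair of hairpin clusters, miR-194-2 with miR-192 and miR-194-1 with miR-215. A seventh row from the same hairpins, miR-215-3p, is given beside them. Small RNA was sequenced from the livers of C57BL/6 mice aged 15 weeks. The 2 TAA libraries came from mice that had received thioacetamide (TAA) intraperitoneally at 200 mg/kg, 3 injections a week over 10 weeks, and the 2 control libraries from mice labelled as controls. TAA is a hepatotoxin with which liver fibrosis is modelled in rodents. The labels give no vehicle, no sex and no transgene, and both groups share the strain, age and tissue. The libraries are called biological replicates, but individual animals are not named, so p-values measure the spread between these libraries.

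A miRNA hairpin is cut into a duplex whose arms are named 5p and 3p. The arm that is kept by the silencing complex is the guide, the other the passenger, and the guide finds its mRNA targets mainly through its seed, bases 2 to 8. miR-192 and miR-194 are abundant in liver, intestine and kidney epithelium. In human cells p53 induces miR-192, miR-194 and miR-215.

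The mature sequences are shown because they divide the 6 arms into target-recognition groups. Capitals mark the seed, and all are written 5′ to 3′ as in RefSeq (GRCm38.p6).
miR-192-5p: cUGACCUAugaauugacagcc
miR-215-5p: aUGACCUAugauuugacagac
miR-194-5p: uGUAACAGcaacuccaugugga
miR-192-3p: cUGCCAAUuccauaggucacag
miR-194-2-3p: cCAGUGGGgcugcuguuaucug
miR-194-1-3p: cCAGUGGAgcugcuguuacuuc

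miR-192-5p and miR-215-5p had the same seed, UGACCUA. Over 21 positions they differed at 3, none of them in the seed, which are C1A, A12U and C20A counted from the 5′ end, with the base of miR-192-5p first. No other miRNA among the 1623 names with a RefSeq sequence had that seed. The passengers miR-194-1-3p and miR-194-2-3p differed at 4 of 22 positions (A8G, C19U, U20C and C22G, with the base of miR-194-1-3p first). The first of these lies in the seed, so that CAGUGGA in miR-194-1-3p stands against CAGUGGG in miR-194-2-3p. CAGUGGG is also the seed of miR-6926-5p and miR-7055-5p, each with 0 reads in all 4 libraries. miR-194-5p is the same sequence in both of its hairpins, so its reads cannot be assigned to a locus from the count files.

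The hairpins are shown because the abundance of the arms differed so widely within them. Capitals mark the mature arms, 5p before 3p.
Mir192: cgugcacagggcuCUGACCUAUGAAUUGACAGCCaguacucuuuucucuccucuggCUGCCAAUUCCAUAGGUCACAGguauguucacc
Mir215: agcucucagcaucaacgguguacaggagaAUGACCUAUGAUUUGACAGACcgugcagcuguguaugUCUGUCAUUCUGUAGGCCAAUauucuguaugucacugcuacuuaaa
Mir194-2: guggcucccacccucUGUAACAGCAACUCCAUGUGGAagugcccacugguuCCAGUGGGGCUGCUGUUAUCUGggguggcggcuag
Mir194-1: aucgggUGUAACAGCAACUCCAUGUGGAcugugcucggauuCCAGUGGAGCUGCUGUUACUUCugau

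Mir194-2 (chr19:6264643-6264728) and Mir192 (chr19:6264844-6264932) lie on the plus strand of GRCm38, the assembly also named mm10, with 115 bases between them. They fall in no other annotated gene of GENCODE M21, and the nearest on either side of Mir192 are Atg2a, 2509 bases away, and Gm14963, 3863 bases away. Mir194-1 (chr1:185313319-185313385) and Mir215 (chr1:185313581-185313692) lie on the plus strand of chromosome 1, with 195 bases between them. Both are within the non-coding gene 2010103J01Rik on the same strand, Mir194-1 in its intron and Mir215 in its exon. Both also lie within an intron of Iars2, which encodes a mitochondrial isoleucyl-tRNA synthetase and runs on the opposite strand.

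**Figure D1:**
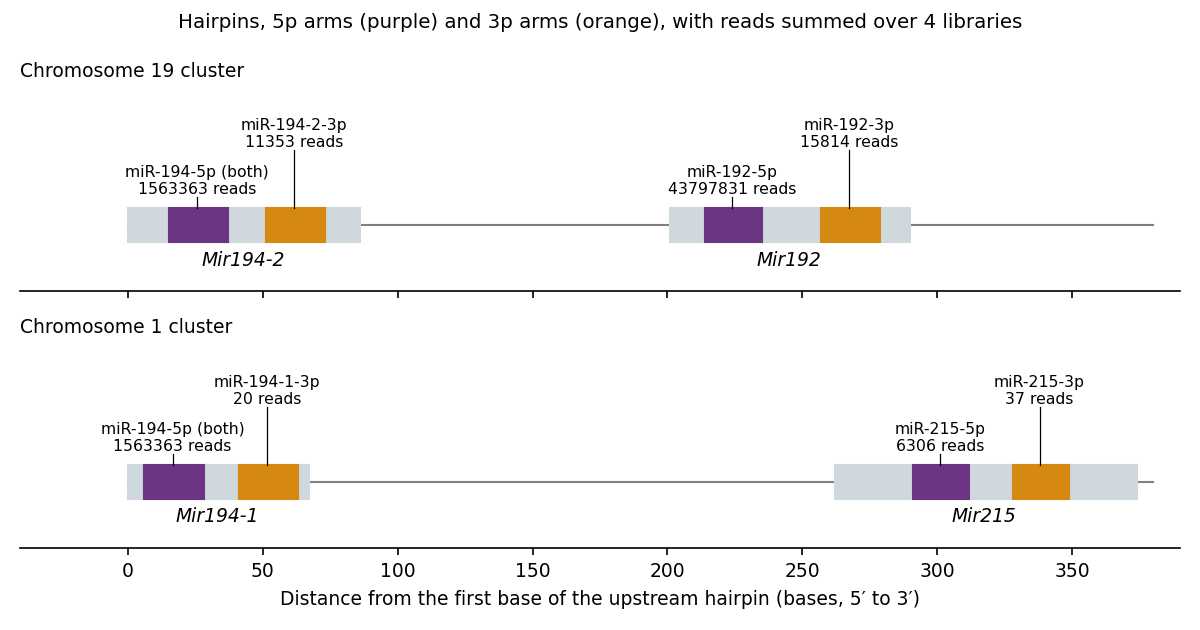
Positions of the hairpins (grey) and their arms along each cluster, in bases from the first base of the upstream hairpin, with the reads of each arm summed over the 4 libraries. miR-194-5p (both) has 1 total of 1563363 reads for both loci, drawn at each; miR-194-2-3p has 11353 reads and miR-194-1-3p has 20.

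The libraries held 43836911 and 48878003 miRNA counts in TAA-treated liver and 42609845 and 46224018 in control liver. CPM below are miRNA counts after TMM scaling of library sizes, where 1 CPM is 42.6 to 48.9 counts before scaling, and ± is the SD of n = 2 libraries. None of 10 other hepatocyte miRNAs was at 0 in any of the 4 libraries. The same held for the leukocyte, erythroid and mesenchymal miRNAs listed below, so presence alone does not identify hepatocytes. The summed level of the hepatocyte miRNAs was 107780 and 112216 CPM in TAA-treated liver and 123637 and 136463 CPM in control liver. A pair of libraries stood apart in markers of other tissues. The 4 erythroid miRNAs summed to 530 and 1926 CPM in TAA 1 and TAA 2, against 325 and 196 CPM in the controls. The 3 pancreatic miRNAs summed to 10.5 and 9.47 CPM in TAA-treated liver, against 109 CPM in control 1 and 8.47 CPM in control 2. Results without TAA 2 and without control 1 are therefore given for the members.

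miR-192-5p, the guide arm of the miR-192 hairpin, was the most abundant miRNA in each of the 4 libraries. It had 10228847 and 11898397 reads in TAA-treated liver and 10366501 and 11304086 reads in control liver. The 6 members together took 24.2% and 25.3% of miRNA counts in TAA-treated liver and 25.2% and 25.3% in control liver. TAA 1 was the lowest, and the groups overlapped. Of all reads in the files, those assigned to no miRNA included, the members took 16.6% and 16.5% in TAA-treated liver and 17.2% and 17.4% in control liver. On that base both TAA libraries lay below both controls (16.5% ± 0.0408 in TAA-treated and 17.3% ± 0.109 in control liver, SD, n = 2 each; exact permutation p = 0.333, two-sided). This base also depends on the fraction of reads assigned to miRNAs. That fraction was 68.6% in TAA 1, 65.4% in TAA 2, 68.3% in control 1 and 68.7% in control 2. Of the members' reads, miR-192-5p made up 96.4% to 96.6%, miR-194-5p 3.36% to 3.53%, and the other 4 arms at most 0.0823%. The mean share of miRNA counts was 24.7% ± 0.767 in TAA-treated liver and 25.3% ± 0.0652 in control liver (SD, n = 2 each; exact permutation p = 0.667, two-sided). With 2 libraries against 2, the smallest p of that test is 0.333.

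In descending order of level came miR-192-5p, miR-194-5p, miR-192-3p, miR-194-2-3p, miR-215-5p and miR-194-1-3p. All are 21 or 22 bases long, so counts were not scaled by length. Ligation in library making favours some RNA ends, so counts of different miRNAs are not calibrated against each other. Each neighbouring pair in that order was separated over the 4 libraries. The closest pair was miR-192-3p, at 78.8 to 101 CPM, and miR-194-2-3p, at 58.1 to 69.5 CPM.

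**Figure D2:**
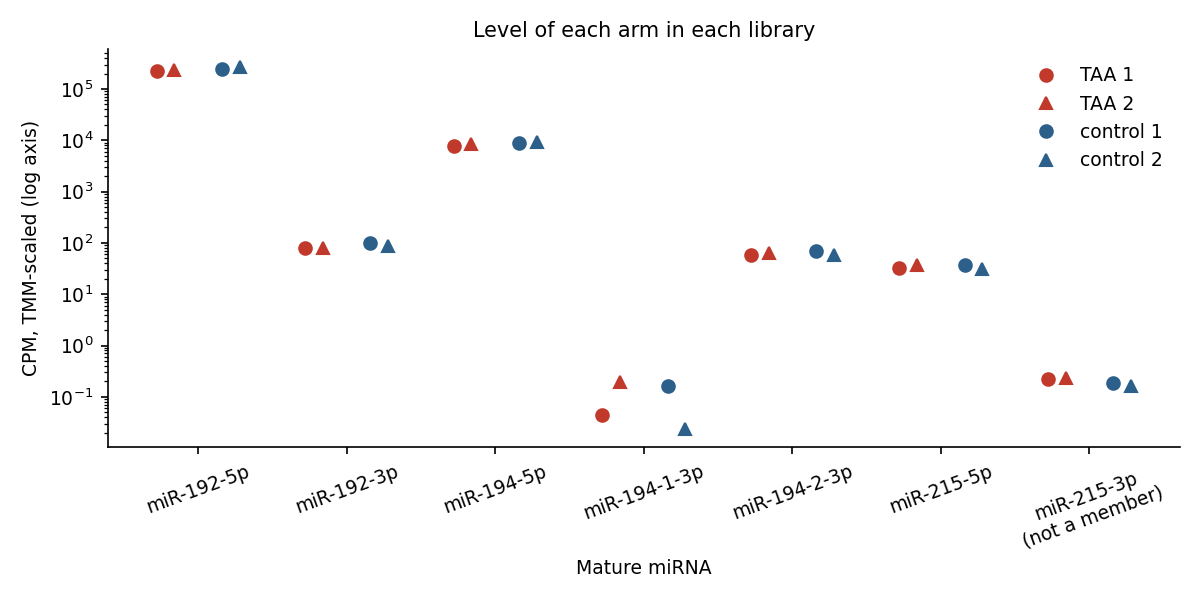
Level of each arm in each library, in CPM on a log axis, with TAA libraries in red and control libraries in blue. The arms hold their order in all 4 libraries, and miR-194-1-3p, with 1 to 10 reads, is the most scattered.

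The comparison of TAA-treated with control liver addresses the miRNAs of TAA-induced fibrosis, and none of the members passed its test in either direction. Of the 6 members 5 were tested, and 0 rose and 0 fell at an edgeR adjusted p under 0.05, with 0 at an unadjusted p under 0.05. DESeq2 and limma-voom also gave 0 in each direction at the adjusted threshold. The unadjusted result depended on scaling, since upper-quartile factors gave miR-192-3p an unadjusted edgeR p of 0.027 (edgeR adjusted p = 0.103). Over all 644 miRNAs tested, 16.6% passed, 14.0% higher and 2.64% lower in TAA-treated liver. The median log2 fold change was -0.14 over the 5 members, ranging from -0.25 to -0.0043, and -0.0042 over all miRNAs tested. In bulk tissue, fewer cells of a type and less RNA per cell cannot be told apart.

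miR-192-5p measured 225049 and 231934 CPM in TAA 1 and TAA 2, and 244876 and 264434 CPM in control 1 and control 2. Both TAA libraries lay below both controls. By its share of miRNA counts, however, TAA 2 at 24.34% exceeded control 1 at 24.33%, with control 2 at 24.46% and TAA 1 lowest at 23.33%. The log2 fold change was -0.16 (SE 0.09, edgeR adjusted p = 0.330), with a 95% interval from -0.36 to 0.05. In percent of the control level, the interval runs from -22.1% to 3.35%. With library size alone the log2 fold change was -0.03, and with upper-quartile factors -0.33, neither past the threshold.

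miR-194-5p, the guide whose sequence both miR-194 hairpins hold, measured 7880 and 8494 CPM in TAA-treated liver and 8873 and 9212 CPM in control liver. On this scale both TAA libraries lay below both controls. Its log2 fold change was -0.14 (SE 0.10, edgeR adjusted p = 0.416), with an interval from -0.37 to 0.08. Its share of counts was 0.817% and 0.892% in TAA-treated liver and 0.882% and 0.852% in control liver, so that by share TAA 2 was the highest and TAA 1 the lowest library.

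The 2 main guides kept a nearly fixed ratio. There were 28.6 and 27.3 reads of miR-192-5p per read of miR-194-5p in TAA-treated liver, and 27.6 and 28.7 in control liver. The groups overlapped, and the libraries of each group differed from each other by more than the means did (27.9 ± 0.887 in TAA-treated and 28.2 ± 0.783 in control liver; exact permutation p = 0.667, two-sided). A ratio within a library does not depend on the scaling of libraries.

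miR-192-3p, the passenger of miR-192, measured 78.8 and 80.9 CPM in TAA-treated liver and 101 and 88.6 CPM in control liver. Control 1 was the highest, and the groups did not overlap. The log2 fold change of -0.25 (SE 0.15, edgeR adjusted p = 0.350) was the most negative of the members, with an interval from -0.59 to 0.09. By share of counts control 2, at 0.00819%, fell between TAA 1, at 0.00817%, and TAA 2, at 0.00849%.

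miR-194-2-3p, the passenger from the chromosome 19 hairpin, measured 58.1 and 63.9 CPM in TAA-treated liver and 69.5 and 58.3 CPM in control liver. The groups overlapped, and control 1 and TAA 1 were the extremes. Its log2 fold change was -0.07 (SE 0.16, edgeR adjusted p = 0.871), with an interval from -0.44 to 0.30. With library size alone the value was 0.05, so its direction was not fixed.

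miR-215-5p, the guide of the miR-215 hairpin and the seed partner of miR-192-5p, measured 32.8 and 36.3 CPM in TAA-treated liver and 37.7 and 31.7 CPM in control liver. Control 1 was the highest and control 2 the lowest, so the TAA libraries lay between them. Its log2 fold change was -0.0043 (SE 0.17, edgeR adjusted p = 0.988), with an interval from -0.40 to 0.39. With library size alone it was 0.11.

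miR-194-1-3p, the passenger from the chromosome 1 hairpin, had 2 and 10 reads in TAA-treated liver and 7 and 1 in control liver. It did not pass the filter on low counts and was not tested. The 12 reads in TAA-treated and 8 in control liver gave a ratio of rates of 1.44, with an exact Poisson interval from 0.540 to 4.05 that covers counting error only. No difference was detected at this depth, and the interval leaves room for one in either direction. miR-215-3p, the other arm of miR-215 and no member, had 10 and 12 reads in TAA-treated liver and 8 and 7 in control liver. It was tested, with a log2 fold change of 0.36 (SE 0.55, edgeR adjusted p = 0.775) and an interval from -0.92 to 1.64.

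Of the 5 members tested, 3 had both TAA libraries below both controls and 2 overlapped. Among all miRNAs tested, 25.6% were lower without overlap in this way and 29.7% higher, 55.3% in all. By share of miRNA counts, without TMM factors, 0 of the 5 members were separated, against 53.3% of all miRNAs tested (14.8% lower in TAA-treated liver). The separation of miR-192-5p, miR-192-3p and miR-194-5p on the CPM scale thus came with the TMM factors, which were 1.04 and 1.05 for the TAA libraries and 0.994 and 0.925 for control 1 and control 2.

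**Figure D3:**
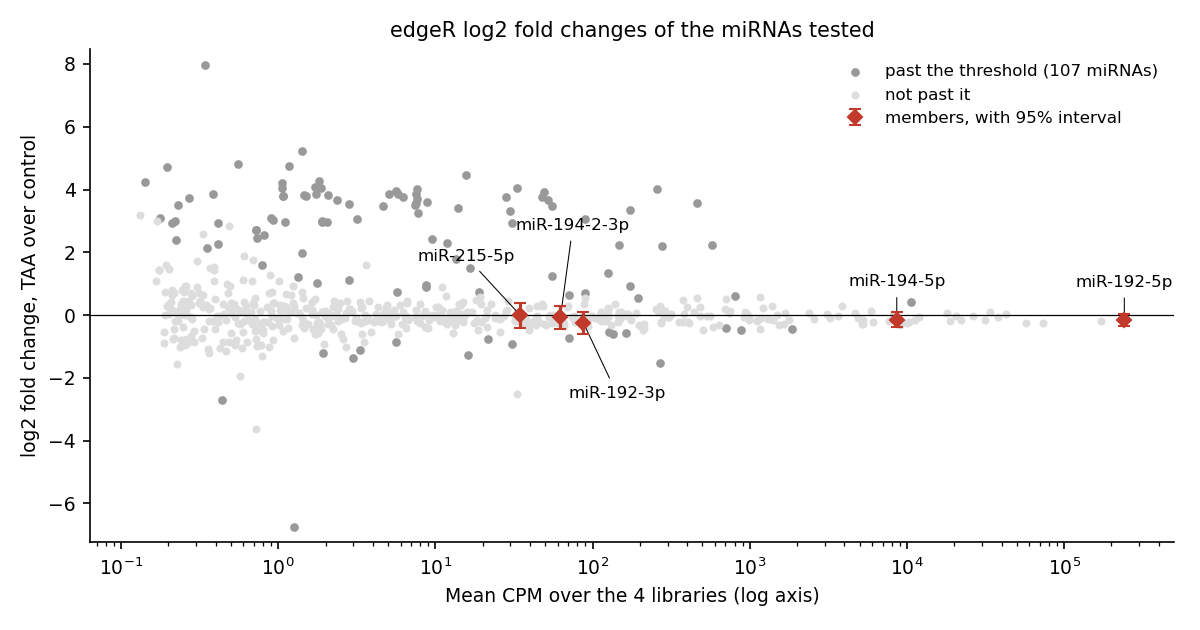
log2 fold change (TAA over control, edgeR) against mean CPM on a log axis for the 644 miRNAs tested, with the 5 tested members as red diamonds and their 95% intervals. All 5 intervals cross 0, and the members lie between -0.25 and -0.0043.

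The members' values moved when a library that stood apart was left out. Without control 1, the log2 fold changes of miR-192-5p, miR-194-5p, miR-192-3p, miR-194-2-3p and miR-215-5p were -0.23, -0.19, -0.17, 0.04 and 0.11, in that order. Without TAA 2 they were -0.17, -0.19, -0.27, -0.13 and -0.07. Each of these fits leaves 1 library in a group, so they are given as effect sizes and cannot show that the calls are stable.

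Within the control group, the 3 least abundant of the tested members were higher in control 1, and the 2 most abundant were lower there; this difference was not tested. miR-192-3p, miR-194-2-3p and miR-215-5p were 1.15, 1.19 and 1.19 times as high in control 1 as in control 2, while miR-192-5p and miR-194-5p were 0.926 and 0.963 times as high. In TAA-treated liver all 5 were lower in TAA 1 than in TAA 2, at 0.905 to 0.973 times. Among 45 miRNAs with mean levels between those of miR-215-5p and miR-192-3p, 34.6 to 87.4 CPM, 25 were higher in control 1 than in control 2, with a median ratio of 1.05, and 30 were higher in TAA 1 than in TAA 2, with a median ratio of 1.06. The pancreatic miRNAs, which were high in control 1, moved the same way as these 3 arms between the controls. So did the summed erythroid and the summed epithelial and biliary miRNAs of the lists below. The hepatocyte, p53-responsive, leukocyte, endothelial and mesenchymal sums were lower in control 1 than in control 2. The part of any of these in the members' values was not tested.

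The arms of a hairpin come from the same precursor, and their ratio within a library is free of library scaling. miR-192 gave 2857 and 2866 reads of its 5p arm per read of its 3p arm in TAA-treated liver, and 2413 and 2986 in control liver. The TAA libraries were nearly equal and lay between the controls. As log2 ratios these averaged 11.48 ± 0.0030 in TAA-treated and 11.39 ± 0.22 in control liver, a difference of 0.09 (SE 0.18, limma adjusted p = 0.983; 95% interval -0.37 to 0.56). The mean log2 ratio of miR-192 was the fifth highest in favour of the 5p arm among 179 hairpins, whose median absolute log2 ratio was 4.30.

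For miR-194, both hairpins hold the 5p sequence, so its count may come from either or both. There were 136 and 133 reads of miR-194-5p per read of miR-194-2-3p in TAA-treated liver, and 128 and 158 in control liver. The TAA libraries again lay between the controls. The difference of the log2 ratios was -0.08 (SE 0.18, limma adjusted p = 0.983; 95% interval -0.54 to 0.39). Of the 179 hairpins tested 0 passed (0% of those tested), with 11 at an unadjusted p under 0.05; no second tool was run. The ratio of miR-194-1-3p was not tested because its mean was under 20 counts, as was that of miR-215-3p. miR-215 gave 149 and 155 reads of 5p per read of 3p in TAA-treated liver and 199.6 and 193 in control liver, but each ratio rests on 7 to 12 reads of the 3p arm.

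**Figure D4:**
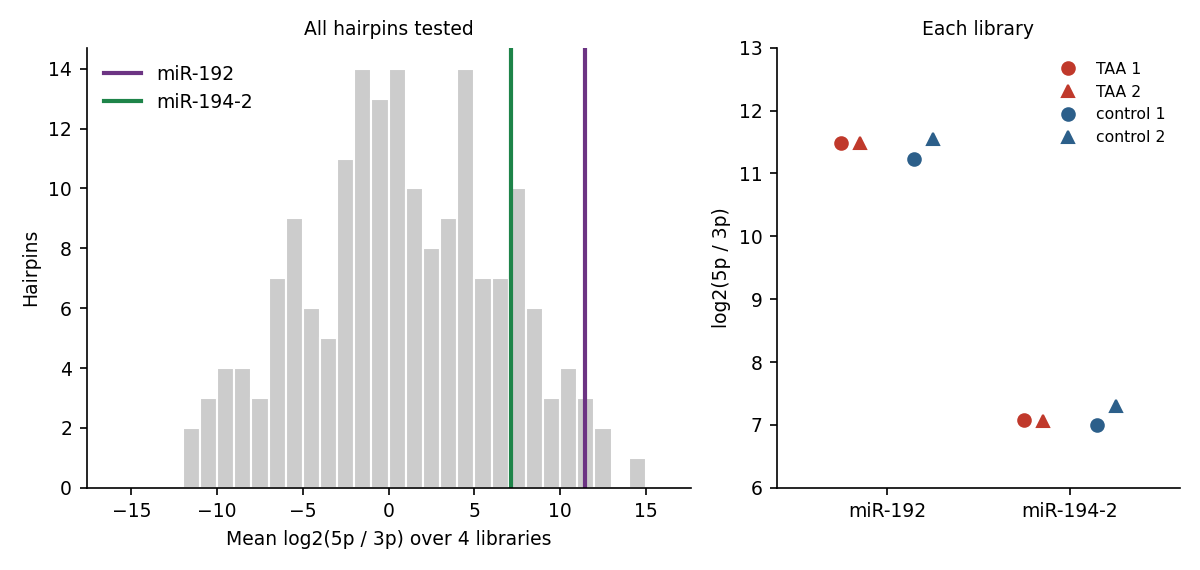
Left, mean log2 ratio of 5p to 3p counts over the 4 libraries for 179 hairpins, with miR-192 and miR-194-2 as lines. Right, the ratio in each library, with TAA libraries left of the controls; in both hairpins the TAA libraries fall between the controls, and the widest gap is between control 1 and control 2.

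The passenger rows of miR-194 differ in sequence, so they can report on each locus separately where reads were assigned to the right row. The mismatches allowed in alignment are not known from the labels, and misassignment between the rows was not tested. miR-194-1-3p supplied 2 of 2641 and 10 of 3286 passenger reads in TAA-treated liver, or 0.0757% and 0.304%. It supplied 7 of 2951 and 1 of 2495 in control liver, or 0.237% and 0.0401%. The exact binomial 95% intervals ran from 0.00917% to 0.273% in TAA 1, from 0.146% to 0.559% in TAA 2, from 0.0954% to 0.488% in control 1 and from 0.00101% to 0.223% in control 2. They cover counting error only, and those of the groups overlap. Over all 4 libraries 99.8% of the passenger reads were miR-194-2-3p, from the cluster that also holds miR-192. How much of miR-194-5p comes from each hairpin cannot be read from the passengers alone, since the ratio of the arms need not be the same in both.

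The seed partners differed in the same sense between the loci. Of the reads with the seed UGACCUA, miR-215-5p from chromosome 1 supplied 0.0146% and 0.0157% in TAA-treated liver and 0.0154% and 0.0120% in control liver. Control 2 was the lowest library, and the groups overlapped. Its Wilson 95% interval, from 0.0113% to 0.0126%, covers counting error only, and replicates differed beyond read sampling. Put the other way, there were 6851 and 6387 reads of miR-192-5p per read of miR-215-5p in TAA-treated liver and 6491 and 8355 in control liver (6619 ± 328 in TAA-treated and 7423 ± 1318 in control liver; exact permutation p = 0.667, two-sided). The sequences differ at 3 positions only, and the allowance for mismatches in alignment is not known from the labels.

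The passengers of the chromosome 19 cluster were closer to each other in level. There were 1.36 and 1.27 reads of miR-192-3p per read of miR-194-2-3p in TAA-treated liver and 1.46 and 1.52 in control liver. Both TAA libraries lay below both controls (1.31 ± 0.0631 in TAA-treated and 1.49 ± 0.0416 in control liver, SD, n = 2 each), and the exact permutation p was 0.333, the smallest this design can give. This was 1 of 3 without overlap, beside the share of all reads and the arm ratio of miR-215, among 13 shares and ratios set between the groups in this way, with no adjustment that could bring any below the threshold.

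By their pattern over the 4 libraries, the miRNAs most like miR-192-5p were miR-151-5p, miR-22-3p, let-7g-5p, miR-194-5p and miR-30e-5p. Likeness was the Euclidean distance between log2 CPM centred on each miRNA's mean, over 136 other miRNAs of at least 100 CPM. The distances ran from 0.0304 for miR-151-5p to 0.0815 for miR-30e-5p, with 0.0620 for miR-194-5p, the cluster neighbour, at rank 4. With 4 libraries this is a description only. miR-22-3p, for example, measured 156340 and 162696 CPM in TAA-treated liver and 171656 and 191132 CPM in control liver. These levels include the TMM factors, with which the separation of miR-192-5p came. A lower level in TAA-treated liver cannot be read from them apart from the scaling.

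Other hepatocyte miRNAs were compared with the members. Over all miRNAs tested 2.64% fell and 14.0% rose. Of 10 hepatocyte miRNAs tested, 1 fell and 0 rose. Their median log2 fold change was -0.31, and over all miRNAs tested it was -0.0042. The one that fell was miR-148a-5p, at 609 ± 24.7 CPM in TAA-treated and 810 ± 29.3 CPM in control liver (log2 fold change -0.41, SE 0.11). Without TAA 1 and without TAA 2, 0 of them fell, against 3 without control 1 and 2 without control 2. None fell with library size alone or in a fit limited to miRNAs of at least 10 CPM in 2 libraries, and 3 fell with upper-quartile factors or with no filter. miR-122-3p, an arm of the hepatocyte-specific miR-122, measured 1372 ± 11.9 CPM in TAA-treated and 1715 ± 147 CPM in control liver (log2 fold change -0.32, SE 0.11). miR-148a-3p, the most abundant of the list, measured 67772 ± 2279 CPM in TAA-treated and 79906 ± 5141 CPM in control liver (log2 fold change -0.24, SE 0.09).

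Beside the 14.0% that rose and 2.64% that fell over all miRNAs tested, the p53-responsive list was counted. Of 11 p53-responsive miRNAs other than the members, 3 rose and 0 fell. Their median log2 fold change was 0.71, -0.06 with the 10 CPM filter, 0.31 without TAA 1 and 0.43 without control 2. Those that rose were all of the miR-34 family, which is a direct target of p53. miR-34a-5p measured 77.2 ± 5.62 CPM in TAA-treated and 32.5 ± 8.58 CPM in control liver (log2 fold change 1.25, SE 0.21). miR-34c-5p (1.505, SE 0.22) and miR-34b-3p (2.27, SE 0.57) also rose. Without TAA 1 and without TAA 2, 1 member of the list rose in each case. One fell with RLE factors, upper-quartile factors, DESeq2 or no filter, and 2 fell without control 2. The abundant miR-143-3p, a smooth muscle miRNA whose processing p53 promotes in human cells, had a log2 fold change of -0.04 (SE 0.14). Whether the members and the miR-34 miRNAs differed in their response was not tested.

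Markers of other cell types were measured in the same libraries, where 14.0% of all miRNAs tested rose and 2.64% fell. Of 6 leukocyte miRNAs 2 rose and 0 fell (median 0.55), with a summed level of 2377 and 1971 CPM in TAA-treated liver and 1150 and 1736 CPM in control liver. Those that rose were miR-150-5p of mature lymphocytes (log2 fold change 1.34, SE 0.14) and miR-155-5p of activated immune cells (0.95, SE 0.19). Without TAA 1 and without TAA 2, 1 rose in each case, while 6 rose without control 2 and 5 with library size alone or with no filter. All 4 erythroid miRNAs, miR-451a, miR-144-3p, miR-144-5p and miR-486a-5p, rose (median 2.27, and 0.99 without TAA 2). With DESeq2 0 of them rose, and with limma-voom 1. With the 10 CPM filter 0 rose, but miR-144-5p, over 10 CPM in TAA 2 alone, was not tested there. Of 8 epithelial and biliary miRNAs, miR-200c-3p and miR-141-3p fell, with log2 fold changes of -0.85 (SE 0.22) and -0.72 (SE 0.17), and 0 rose (median -0.15). With the 10 CPM filter miR-141-3p did not pass, and miR-200c-3p, at 3.72 to 8.22 CPM, was not tested. When a library was left out, the list median ran from -0.12 without TAA 1 to -0.48 without control 2. Of 5 mesenchymal miRNAs miR-214-3p rose (0.65, SE 0.17) and 0 fell (median 0.26); 0 rose without TAA 1, TAA 2 or control 2 or with upper-quartile factors, and 2 without control 1, with library size alone or with no filter. Without control 2, 1 of the mesenchymal list fell. Neither of the 2 endothelial miRNAs passed (median -0.11, which turned to 0.02 with library size alone), and of the pancreatic miRNAs 2 were tested and 0 passed, while 1 fell with library size alone or upper-quartile factors and 3 without control 2 or with no filter. The part of a changed cell make-up in the members' values was not tested.

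**Figure D5:**
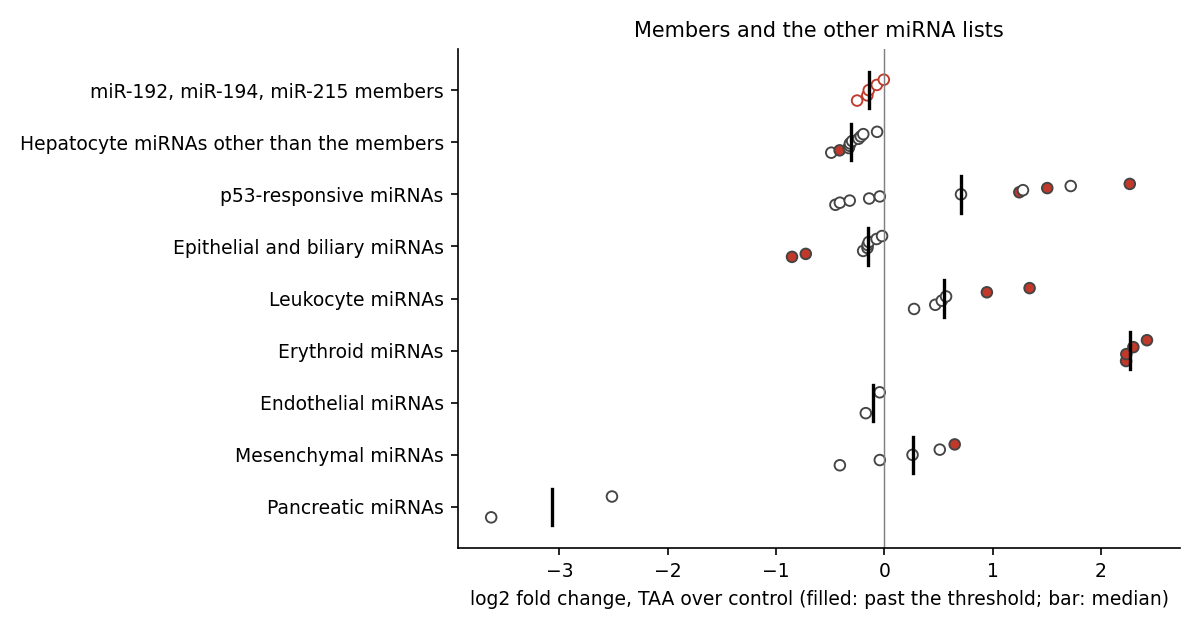
log2 fold changes (TAA over control, edgeR) of the tested members and of the tested miRNAs in each list, as circles that are filled where past the threshold, with a bar at each median. The members and the other hepatocyte miRNAs lie to the left of 0 with 1 filled circle among them, though with library size alone miR-194-2-3p and miR-215-5p lay to the right, and the 4 erythroid circles lie at 2.23 to 2.43.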

How the data were processed

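Small RNA libraries from liver, 2 from TAA-treated and 2 from control mice, were compared by the treatment in the labels. An miRNeasy kit was used for RNA and a TruSeq small RNA kit for libraries, per the labels' protocols. The authors deposited raw counts of reads for each mature miRNA, 1 file a library. Bowtie (alignment to mm10) and HTSeq (counting) are named in the submitters' processing notes. Versions, settings, annotation release and the handling of reads with several matching loci are not stated there, and HTSeq's row for non-unique alignments is 0 in all 4 files. The 5 summary rows that name no miRNA entered neither library sizes nor tests. They held 31.3% to 34.6% of reads.

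Counts were tested with edgeR 4.0.16 in R 4.3.3 (filterByExpr, TMM, quasi-likelihood F test) and Benjamini-Hochberg adjustment over 644 miRNAs at a threshold of 0.05. The SE is the log2 fold change divided by the square root of F. Arm ratios, log2 of 5p over 3p counts each plus 0.5, were tested with limma 3.58.1 over hairpins whose arms each averaged 20 counts or more. A 3p row of a numbered locus was set against the 5p row of that name. Shares and ratios were compared by an exact permutation test. Intervals are at 95%.

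Replicates differed beyond read sampling (chi-square per degree of freedom 324 for TAA and 237 for control), so no library was counted as a copy. The check is against read sampling alone and cannot tell whether the libraries came from different animals. Sequences came from RefSeq tables (GRCm38.p6) for 1623 of 1907 names, all members included, and gene positions from GENCODE M21. The members and lists were chosen with earlier results of these data known. Named beside the members were the 2 smallest p and the most abundant miRNA of each list; miR-34b-3p, miR-451a and miR-144-3p were named after their values were seen.

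In simulated counts for this comparison (622 miRNAs tested), 62.2% of 98 miRNAs changed 2-fold and 97.0% of 100 changed 4-fold were recovered, with 10 false calls, and 1 call when nothing changed. For arm ratios 17 of 20 hairpins changed 4-fold among 178 were recovered, with 0 false calls.

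Alternatives were RLE, upper-quartile and no factors, TMM without miR-192-5p, other count filters, DESeq2 1.42.0, limma-voom, a replicate block, other settings of the arm ratio, and leaving out each library.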

Additional observations from a re-analysis of the deposited data

How the results depend on the processing

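In the 13 alternatives to the edgeR fit, and with the crossed pairing below, 0 members rose and 0 fell each time. miR-192-5p, miR-194-5p and miR-192-3p stayed lower in all 13, at log2 fold changes of -0.33 to -0.03, -0.31 to -0.02 and -0.42 to -0.13. miR-194-2-3p turned to 0.048 with library size alone and to 0.0068 with a filter of at least 10 CPM in 2 libraries, and ranged from -0.20 to 0.044 with a library left out. miR-215-5p turned to 0.11 with library size alone, 0.071 with the 10 CPM filter and 7.74e-05 with limma-voom, and ranged from -0.13 to 0.11 with a library left out. The causes were not tested. Over all miRNAs the median log2 fold change became -0.17 with upper-quartile factors and 0.12 with library size alone, and the members shifted with it.

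Over all miRNAs, 90 rose and 17 fell; the 10 CPM filter, which tests 282 miRNAs, gave 36 and 5. With upper-quartile factors 32 fell, and without a filter 32. With a library left out, 47 to 98 rose and 2 to 33 fell. The arm-ratio test called 0 hairpins, 2 with a pseudocount of 5, 1 with at least 100 counts and 1 to 15 with a library left out. The difference for miR-192 ranged from -0.061 to 0.25 and for miR-194-2 from -0.23 to 0.075 with a library left out, and neither passed. The members' share, TAA minus control, was -0.57 percentage points, -0.78 over all reads, and -1.11 to -0.02 with a library left out.

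The labels number both groups 1 and 2. Deviations of same-numbered libraries correlated at -0.001 over all miRNAs tested and at -0.28 over the 273 of at least 10 CPM, so the numbers were not taken as pairs. With a replicate block 92 rose, 18 fell and 0 members passed, and the log2 fold change of miR-192-5p was -0.16 (edgeR adjusted p = 0.453). The block also changed calls in the lists of other miRNAs: 0 hepatocyte miRNAs fell (1 without the block), 4 p53-responsive (3) and 2 mesenchymal ones (1) rose, and 1 pancreatic one fell (0). With the pairing crossed, chosen after seeing the data, 95 rose, 20 fell and 0 members passed. Depth limits miR-194-1-3p and miR-215-3p, with at most 12 reads in any library.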
